A study of Mus musculus with 6 samples.

Results

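The genes described here encode LIM-domain proteins of actin structures. They are the 10 genes Fhl1, Fhl2, Fhl3, Csrp1, Csrp2, Pdlim1, Pdlim3, Pdlim5, Pdlim7 and Lima1, taken by gene symbol from the 27179 genes of the deposited table. RNA was measured by poly(A) sequencing of cerebral cortex of C57BL/6N mouse embryos late in gestation, at E18.5. The Control group (3 libraries, FF1, FF2 and FF4) had both Cap1 alleles flanked by recombination sites (Cap1 flx/flx) and no Cre. The CAP1-KO group (3 libraries, FCRE3, FCRE4 and FCRE5) had the same alleles and in addition a Nestin-CRE transgene, whose promoter is active in neural progenitors; which cells had recombined was not measured. There was no group with Nestin-CRE and unflanked Cap1, so the transgene itself and the loss of CAP1 cannot be told apart. The labels call the libraries biological replicates and the protocol counts 3 embryos per genotype, with nothing on litters.

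A LIM domain is a pair of zinc fingers that binds other proteins. FHL proteins consist almost wholly of LIM domains and link signalling proteins, integrins and transcription factors to the actin cytoskeleton. CSRP proteins carry LIM domains with glycine-rich stretches and bind the actin crosslinker alpha-actinin and actin filaments. PDLIM proteins join a PDZ domain, which binds alpha-actinin, to LIM domains, and Lima1 (also called EPLIN) bundles and stabilises actin filaments. CAP1 promotes the turnover of actin filaments, and the series title concerns genes driven by SRF, a transcription factor that binds the DNA element named the CArG box and whose MRTF coactivators are held back by unpolymerised actin. Fhl2 and Csrp1 are long known as SRF target genes.

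Because the title concerns SRF, the 250 bases before each RefSeq transcript start of the members (build GRCm38.p6) were searched for the CArG box. A table of RefSeq promoters held 13 such windows for 9 of the 10 members, and none for Csrp2. A CArG box was found in 4 of the 13 windows, at both starts of Fhl2, at the first of 2 starts of Fhl1 and at the single start of Lima1, against 1.47% of all 32851 promoter windows of that length. Both starts of Csrp1 had none. The TEAD motif (GGAATG, or CATTCC on the other strand) was found in 1 of the 13 windows, that of Pdlim3, against 12.6% of all windows, and the AP-1 motif (TGANTCA) in 0, against 6.75%. A match is a description of the letters, and a window without one says nothing about the factor. The stretches below, of at most 120 bases nearest the start, stand for the windows with a CArG box, in capitals, and for Csrp1, which has none in its windows. They are written 5′ to 3′ on the gene's strand, leave out bases that GENCODE places in an exon, and end at the base before the start unless that base is in an exon; the first Fhl2 window lies in an annotated exon and is given as 30 bases around its CArG box.
Fhl2, first start, chr1:43196838-43196867, minus strand: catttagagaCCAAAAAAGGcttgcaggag
Fhl2, second start, chr1:43163962-43164081, minus strand: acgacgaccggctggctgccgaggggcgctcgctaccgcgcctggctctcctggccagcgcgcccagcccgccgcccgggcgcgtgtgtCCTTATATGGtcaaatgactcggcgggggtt
Fhl1, first start, chrX:56779563-56779682, plus strand: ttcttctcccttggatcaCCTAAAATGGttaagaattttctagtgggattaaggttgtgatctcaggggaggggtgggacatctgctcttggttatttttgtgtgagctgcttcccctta
Lima1, chr15:99820150-99820269, minus strand: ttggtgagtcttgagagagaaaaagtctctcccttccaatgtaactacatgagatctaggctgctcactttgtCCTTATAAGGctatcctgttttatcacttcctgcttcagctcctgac
Csrp1, first start, chr1:135719943-135720060, plus strand: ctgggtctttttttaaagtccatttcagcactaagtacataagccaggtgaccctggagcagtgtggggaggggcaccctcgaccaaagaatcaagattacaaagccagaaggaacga
Csrp1, second start, chr1:135729047-135729146, plus strand: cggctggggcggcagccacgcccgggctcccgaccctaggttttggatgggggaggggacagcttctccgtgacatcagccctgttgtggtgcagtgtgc

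The CArG boxes lay near the starts. That of the second Fhl2 start began 31 bases before it, that of Lima1 47 bases, that of the first Fhl2 start 96 bases and that of the first Fhl1 start 102 bases. The windows of Fhl1, Fhl2, Fhl3 and Lima1 lie inside the annotated span of their genes, so other starts of these genes were not searched. The deposited values are totals per gene that do not say which start was used.

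**Figure D1:**
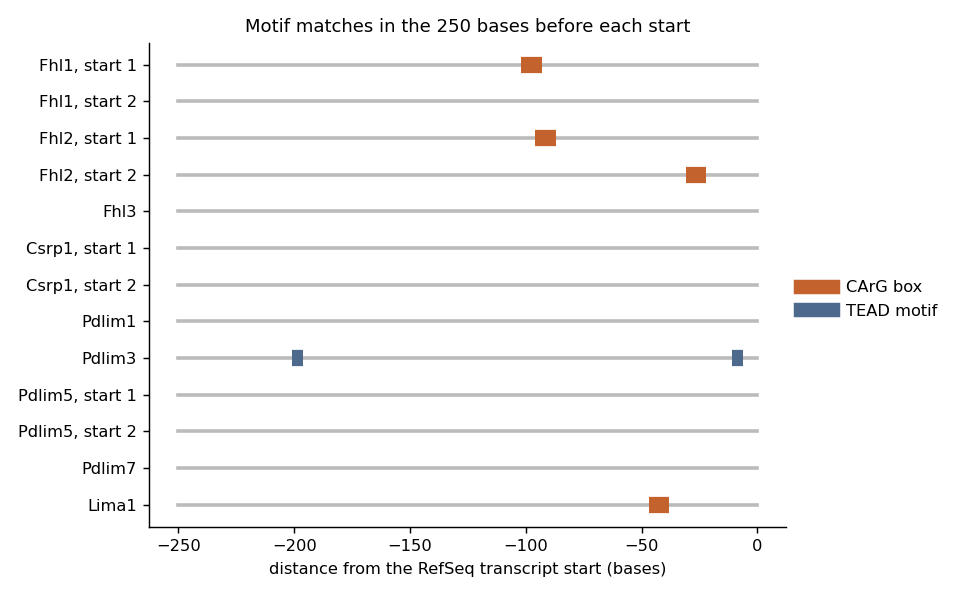
Positions of motif matches in the 250 bases before each RefSeq transcript start of the members; the horizontal axis is the distance from the start in bases, each grey line is 1 window, orange marks a CArG box and blue a TEAD motif. Of 13 windows 4 hold a CArG box, 2 of them in Fhl2, and none of the Csrp1 windows does.

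Depth and the state of the libraries bear on all values below. Levels are in CPM, reads scaled to a common library size, obtained from the deposited log2 values, and the recovered depth ran from 32443864 to 36302598 reads per library. The targeted gene Cap1 had a mean of 184 CPM (SD 16.2, n = 3) in Control libraries and of 85.1 CPM (SD 2.0, n = 3) in those of CAP1-KO (log2 fold change -1.10, limma, Benjamini-Hochberg adjusted p = 0.000283). The Control library FF4 stood apart: read counts of FF4 and another Control library differed by a chi-square per gene of 23.9 or 31.5, against 5.54 to 10.8 for all other replicate pairs. Xist, transcribed from the inactive X, stood at 2296 CPM or more in FF2 and the CAP1-KO libraries, and at 0.58 and 2.05 CPM in FF1 and FF4, so embryo sex was not balanced. The neuronal markers of the cortex used here (8 genes: Tubb3, which all neurons express, Neurod2, Neurod6, Tbr1, Bcl11b, Fezf2, Slc17a7 and Emx1; all tested, none called) summed to 4314 and 4359 CPM in FF1 and FF2, 3369 CPM in FF4 and between 3170.4 and 3337 CPM in CAP1-KO. Tubb3 made up the largest share, with 2261, 2271 and 1940.3 CPM in FF1, FF2 and FF4 and 1773 to 1805 CPM in CAP1-KO. FF4 lay above every CAP1-KO library for Tubb3, Bcl11b and Slc17a7, below every one for Emx1, Neurod2 and Tbr1, and among them for Neurod6 and Fezf2.

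Of the 10 members, Fhl2 and Csrp1 rose in CAP1-KO, roughly tripling and doubling, and no other member passed the test. A gene was tested where its mean over the 6 libraries was at least 1 CPM, which 8 members and 13885 genes in all did, and it was called at a limma adjusted p under 0.05. The 2 members called higher compare with 0.562% of all tested genes called higher. None of the 8 was called lower, against 0.403% of tested genes, and at an unadjusted p under 0.05 Fhl2, Csrp1, Pdlim5 and Lima1 passed, all 4 with a higher mean in CAP1-KO, against 23.0% of tested genes in either direction. The median log2 fold change was 0.24 over the 8 members and -0.01 over all tested genes. In bulk tissue, more cells of a type and more RNA per cell cannot be told apart.

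**Figure D2:**
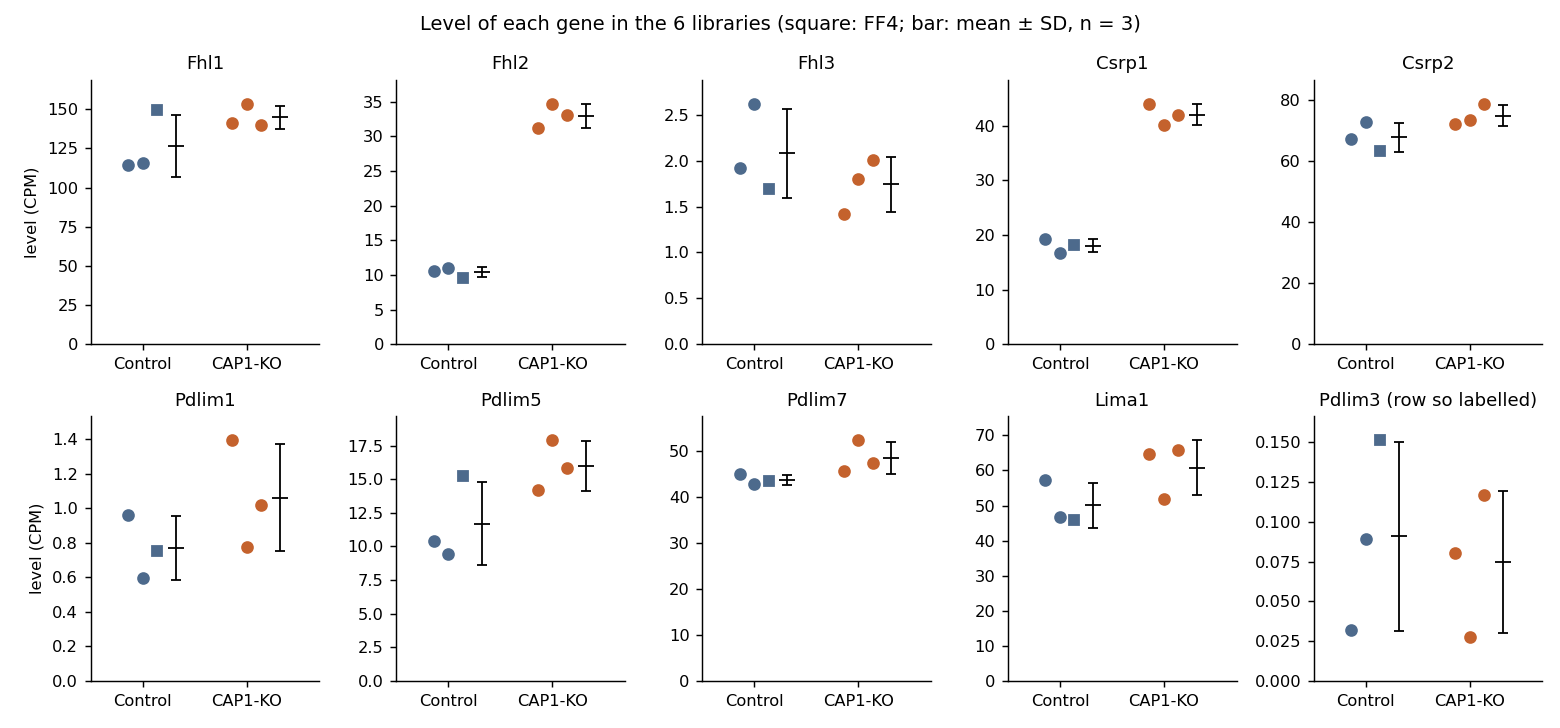
Level in CPM (vertical axes, each from 0) of each member in the 3 Control (blue) and 3 CAP1-KO (orange) libraries; the square is the Control library FF4 and the bar is mean ± SD. Fhl2 lies between 9.55 and 10.99 CPM in Control and between 31.2 and 34.7 CPM in CAP1-KO, while for Fhl1 and Pdlim5 the FF4 value lies among those of CAP1-KO. The Pdlim3 panel shows the row that carries that symbol, which is numbered as Sorbs2os.

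Fhl2 (gene number 14200, GRCm38 chromosome 1, 43123071 to 43198343), a LIM-only adaptor found at focal adhesions and in the nucleus, measured 10.6 CPM in FF1, 10.99 in FF2 and 9.55 in FF4, and 31.2 in FCRE3, 34.7 in FCRE4 and 33.1 in FCRE5. The 3 CAP1-KO libraries were close to each other and far above every Control library, FF4 included. These values rest on 1016 reads in Control and 3551 in CAP1-KO. The log2 fold change was 1.58 (SE 0.07, 95% interval 1.41 to 1.75, limma adjusted p = 0.000103), a 2.99-fold rise on the log2(CPM + 1) scale. By p-value it was the 5th of the 13885 tested genes and by size of rise the 24th. The authors' deposited table gives it a log2 fold change of 1.67. At an FDR under 0.05 in the authors' deposited table, Fhl2 and Csrp1 were again the members called higher, against 0.401% of its 27179 genes, and 0 members were called lower, against 0.412%.

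The other FHL genes gave smaller differences that did not pass. Fhl1 (14199, chromosome X, 56731209 to 56793346), the main FHL protein of skeletal muscle, was by far the most abundant of the 3 and measured 115 CPM in FF1, 116 in FF2 and 149 in FF4, and 141 in FCRE3, 154 in FCRE4 and 139.9 in FCRE5. FF1 and FF2 lay below all CAP1-KO libraries, and FF4 lay between them (log2 fold change 0.20, 95% interval -0.03 to 0.44, limma adjusted p = 0.279). Fhl1 is X-linked. Of the Control libraries, FF2 had Xist and FF1 and FF4, the lowest and the highest in Fhl1, did not. With the Xist level as a covariate the log2 fold change of Fhl1 was 0.30 (limma adjusted p = 0.334). The part of embryo sex in its values was not tested further. Fhl3 (14201, chromosome 4, 124695964 to 124708611), an actin-binding member of the family, was low, with 1.92, 2.62 and 1.69 CPM in FF1, FF2 and FF4 and 1.42, 1.80 and 2.01 CPM in FCRE3, FCRE4 and FCRE5. Its groups overlapped (log2 fold change -0.16, 95% interval -0.51 to 0.19, limma adjusted p = 0.555), and 204 reads in Control and 187 in CAP1-KO stand behind them.

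Csrp1 (13007, chromosome 1, 135720063 to 135752229), the CSRP protein of smooth muscle and many other tissues, measured 19.2 CPM in FF1, 16.8 in FF2 and 18.2 in FF4, and 44.0 in FCRE3, 40.1 in FCRE4 and 41.9 in FCRE5. Every CAP1-KO library was at least 2 times as high as every Control library. The log2 fold change was 1.17 (SE 0.07, 95% interval 1.02 to 1.33, limma adjusted p = 0.000216), a 2.26-fold rise on the log2(CPM + 1) scale, and the authors' deposited table gives 1.22. Csrp2 (13008, chromosome 10, 110920176 to 110939514), a second CSRP protein, stood higher at the start, with 67.2, 72.7 and 63.5 CPM in FF1, FF2 and FF4, and measured 72.3, 73.5 and 78.8 CPM in FCRE3, FCRE4 and FCRE5. Its lowest CAP1-KO value lay below the FF2 value, and the difference did not pass (log2 fold change 0.14, 95% interval -0.0044 to 0.29, limma adjusted p = 0.228).

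None of the PDLIM genes was called. Pdlim5 (56376, chromosome 3, 142239585 to 142395719), also known as ENH, measured 10.4 CPM in FF1, 9.44 in FF2 and 15.3 in FF4, and 14.2 in FCRE3, 17.9 in FCRE4 and 15.9 in FCRE5. FF1 and FF2 were well below the CAP1-KO libraries and FF4 was among them (log2 fold change 0.44, 95% interval 0.05 to 0.83, limma adjusted p = 0.172). Pdlim7 (67399, chromosome 13, 55497487 to 55513473), also known as Enigma, was the most abundant PDLIM gene, with 44.9, 42.8 and 43.4 CPM in FF1, FF2 and FF4 and 45.6, 52.2 and 47.4 CPM in FCRE3, FCRE4 and FCRE5. Its groups did not overlap, as for 11.1% of tested genes that were separated upward, but the gap was under 1 CPM and the difference did not pass (log2 fold change 0.14, 95% interval -0.00099 to 0.28, limma adjusted p = 0.219).

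Pdlim1 and Pdlim3 lay under the level needed for the test. Pdlim1 (54132, chromosome 19, 40222239 to 40271616), also called CLP36, had 30, 20 and 25 reads in FF1, FF2 and FF4 and 52, 28 and 35 in FCRE3, FCRE4 and FCRE5, that is 0.77 ± 0.18 and 1.06 ± 0.31 CPM (n = 3 each), with overlapping groups. For Pdlim3, the PDLIM protein ALP of muscle Z-discs, symbol and gene number stand on different rows of the deposited table. The row with its symbol carries the gene and Ensembl numbers of the neighbouring noncoding gene Sorbs2os, while Pdlim3's own number, 53318 (chromosome 8, 45885487 to 45919635), stands on a row with the symbol Ccdc110. The row with the symbol had 1, 3 and 5 reads in FF1, FF2 and FF4 and 3, 1 and 4 in FCRE3, FCRE4 and FCRE5, in all 9 (95% exact Poisson interval 4.12 to 17.1) and 8 (3.45 to 15.8). The row with the number had 10, 8 and 13 reads and 15, 18 and 17 reads in the same order, in all 31 (21.1 to 44.0) and 50 (37.1 to 65.9). Its groups did not overlap, with CAP1-KO higher. The share among tested genes was 11.1%, but this row lay under the level tested and is not among them. Either way Pdlim3 was under 0.5 CPM in every library, and a difference was not tested at this depth. For the other 9 members symbol and number named the same gene.

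Lima1 (65970, chromosome 15, 99778468 to 99875477) measured 57.3 CPM in FF1, 46.8 in FF2 and 46.0 in FF4, and 64.8 in FCRE3, 51.8 in FCRE4 and 65.7 in FCRE5. FCRE4 lay below FF1, so the groups overlapped, and the difference did not pass (log2 fold change 0.27, 95% interval 0.01 to 0.54, limma adjusted p = 0.206). Of the 3 members with a CArG box in a window, Fhl2 was thus called and Fhl1 and Lima1 were not, and Csrp1 was called with none in its windows.

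**Figure D3:**
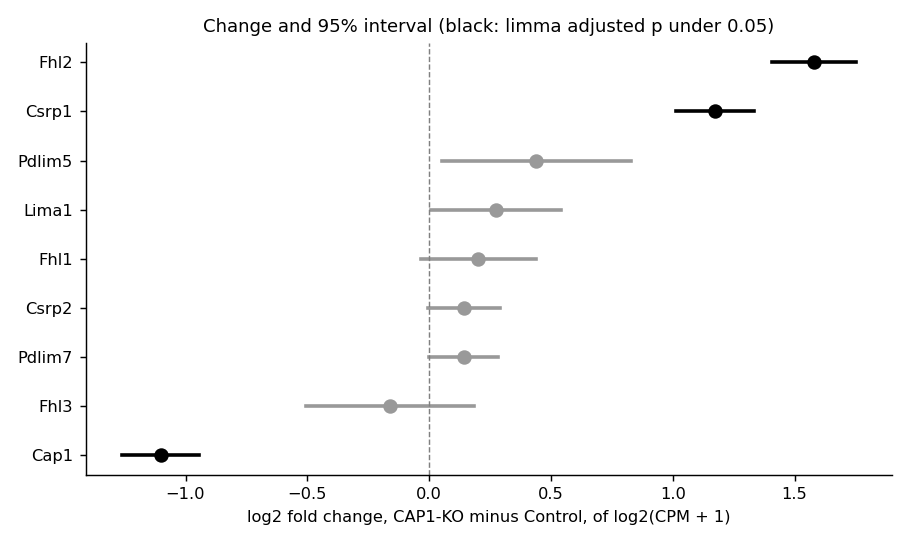
Log2 fold change of log2(CPM + 1), CAP1-KO minus Control, with its 95% interval from limma, for the 8 tested members and Cap1; black marks an adjusted p under 0.05. Fhl2 (1.58) and Csrp1 (1.17) stand clear of the other members, whose values run from -0.16 (Fhl3) to 0.44 (Pdlim5).

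Fhl2 and Csrp1 were called with and without FF4 and with Xist in the model, while the calls of Fhl1 and Pdlim5 changed with FF4. In all 14 alternative settings Fhl2 stayed called with a log2 fold change of 1.50 to 1.68 (limma adjusted p up to 0.00523), and Csrp1 with 1.12 to 1.28 (up to 0.00523). With the Xist level as a covariate their values were 1.51 and 1.28. In that fit Fhl1 (0.30, limma adjusted p = 0.334) and Pdlim5 (0.68, adjusted p = 0.247) were not called. All CAP1-KO libraries had Xist, so the covariate rests mostly on FF2 against FF1 and FF4. As FF4 stood apart, that fit cannot separate Xist from the standing of FF4. Without FF4, Fhl1 (0.33, limma adjusted p = 0.0019) and Pdlim5 (0.63, adjusted p = 0.00259) were called as well, but so were 9.36% of all tested genes as higher and 18.9% as lower. Against FF2 alone, the only Control library with Xist, Fhl1 (0.32, limma adjusted p = 0.0306) and Pdlim5 (0.70, adjusted p = 0.0224) were again called, with 4.51% of tested genes called higher and 8.53% lower. The summed cortical neuron markers given above were also lower in FF4 than in the other Control libraries, and their part in the Fhl1 and Pdlim5 values was not tested.

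Within families, Fhl2 was higher relative to Fhl1 and Fhl3, and Csrp1 relative to Csrp2, in CAP1-KO. With 3 libraries per group the exact test could call no pair. A ratio of 2 genes within a library does not depend on how that library was scaled. The CPM of Fhl2 was 0.093, 0.095 and 0.064 of that of Fhl1 in FF1, FF2 and FF4, and 0.22, 0.23 and 0.24 of it in FCRE3, FCRE4 and FCRE5. The log2 ratio of Fhl2 to Fhl1 was 1.46 higher in CAP1-KO (SE 0.19) and that of Fhl2 to Fhl3 1.91 higher (SE 0.18). Csrp1 stood at 0.29, 0.23 and 0.29 of Csrp2 in FF1, FF2 and FF4 and at 0.61, 0.55 and 0.53 in FCRE3, FCRE4 and FCRE5, a log2 ratio 1.07 higher (SE 0.12). In these 3 of the 7 pairs the libraries of the groups did not overlap, each with an exact two-sided permutation p of 0.1, the smallest that 3 against 3 allow, and an adjusted p of 0.233 over the 7 pairs. Each of these pairs holds Fhl2 or Csrp1, called above, so the separation draws on the same values. The share of gene pairs that separate in general was not computed. For Pdlim5 to Pdlim7 the log2 ratio was 0.33 higher (SE 0.22, exact permutation p = 0.4), with FF4 (0.35) above FF1 (0.23) and FF2 (0.22) and above all CAP1-KO libraries (0.31 to 0.34). The remaining pairs were Fhl1 to Fhl3 (0.45 higher, SE 0.32, exact permutation p = 0.3), Pdlim1 to Pdlim7 (0.31 higher, SE 0.35, p = 0.4) and Pdlim5 to Pdlim1 (0.03 higher, SE 0.43, p = 1.0). Pairs with Pdlim3 were left out for want of reads.

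**Figure D4:**
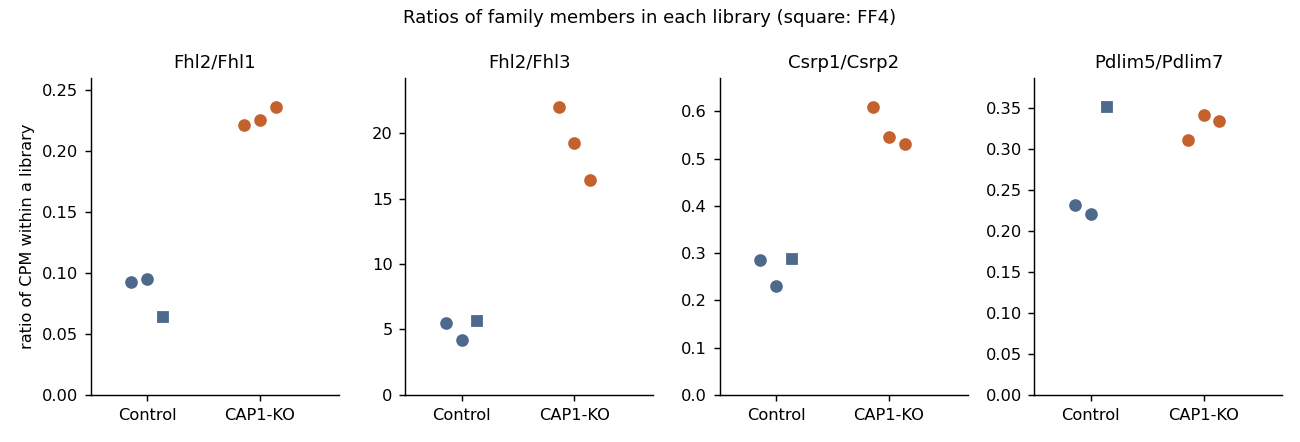
Ratio of the CPM of 2 family members within each library (vertical axes from 0), for Control (blue, the square is FF4) and CAP1-KO (orange). The ratios of Fhl2 to Fhl1, Fhl2 to Fhl3 and Csrp1 to Csrp2 are separated between groups, while for Pdlim5 to Pdlim7 FF4 (0.35) lies above the CAP1-KO libraries.

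Levels can be compared between genes only per length, here as CPM per kilobase of all annotated exon bases of the gene in GENCODE. In Control, Fhl1 (34.1 ± 5.30) and Csrp2 (31.2 ± 2.14) were highest, with overlapping libraries, followed by Csrp1 (9.24 ± 0.64) and Pdlim7 (9.02 ± 0.23), which also overlapped (mean ± SD, n = 3). Lima1 (6.57 ± 0.83) came next, then Fhl2 (5.47 ± 0.39), whose highest library, 5.79, lay below the lowest of Lima1, 6.04. Pdlim5 (1.32 ± 0.35) and Fhl3 (1.24 ± 0.29) overlapped, and Pdlim1 (0.15 ± 0.04) was lowest of those whose symbol and number named the same gene. In CAP1-KO, Fhl2 (17.4 ± 0.91) stood above Pdlim7 (9.98 ± 0.71) and Lima1 (7.99 ± 1.02) and below Csrp1 (21.5 ± 1.0), with no overlap between Csrp1, Fhl2 and Pdlim7, so that both called genes moved up in level toward Csrp2 (34.5 ± 1.60) and Fhl1 (39.0 ± 2.04). Exon bases of rarely used transcripts lengthen a gene in this measure.

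Of 40 other LIM genes of actin structures, 37 were tested, and their median log2 fold change was -0.06. By limma 2 were called higher, against 0.562% of all tested genes, and none was called lower, against 0.403%. Both genes called higher encode adaptors of integrin adhesions, but that trait did not set them apart. Other adhesion genes of this list were not called and differed in direction, among them paxillin itself (Pxn, -0.26), Lims1 (0.07) and Lpp (0.39). Tgfb1i1 (Hic-5), a relative of paxillin, measured 9.84, 10.4 and 9.09 CPM in FF1, FF2 and FF4 and 46.0, 48.5 and 43.4 CPM in FCRE3, FCRE4 and FCRE5 (log2 fold change 2.12, limma adjusted p = 2.44e-05). Fblim1 (migfilin), which ties filamin to adhesions, measured 30.5, 33.0 and 34.7 CPM in FF1, FF2 and FF4 and 80.8, 81.4 and 77.0 CPM in FCRE3, FCRE4 and FCRE5 (log2 fold change 1.26, limma adjusted p = 0.000103). Among the rest 14 had a higher and 21 a lower mean log2 value in CAP1-KO, from -0.49 (Mical2) to 0.44 (Zyx, zyxin, limma adjusted p = 0.0839), and 16 of the 37 had an unadjusted p under 0.05, against 23.0% of all tested genes. The groups did not overlap for 6 of the 37 with CAP1-KO higher (11.1% of tested genes) and for 10 with CAP1-KO lower (14.6% of tested genes). The count called higher was 4 when scaled to total reads, where 104 of all 13885 tested genes were called higher. Without FF4 it was 6, against 9.36% of all tested genes, and 14 genes were called lower, against 18.9%.

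The LIM genes of the nucleus, which are transcription factors and their partners and not parts of actin structures, held no called gene. Of 16 listed, 11 were tested, with a median log2 fold change of -0.01 and 0 called either way by limma. At an unadjusted p under 0.05 were 3 of the 11, against 23.0% of all tested genes. The 2 most abundant were Lmo4, at 226 ± 5.30 and 220.3 ± 13.8 CPM in Control and CAP1-KO, and Lmo3, at 145 ± 10.9 and 144 ± 2.19 CPM (n = 3 each). Lhx8, a transcription factor of the ventral forebrain, had the largest difference of this list (2.09, limma adjusted p = 0.167) and measured 1.19 and 0.51 CPM in FF1 and FF2, 14.9 CPM in FF4 and 11.6 to 17.9 CPM in CAP1-KO. FF4 was thus at the level of the CAP1-KO libraries for Lhx8 and well above the other Control libraries.

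**Figure D5:**
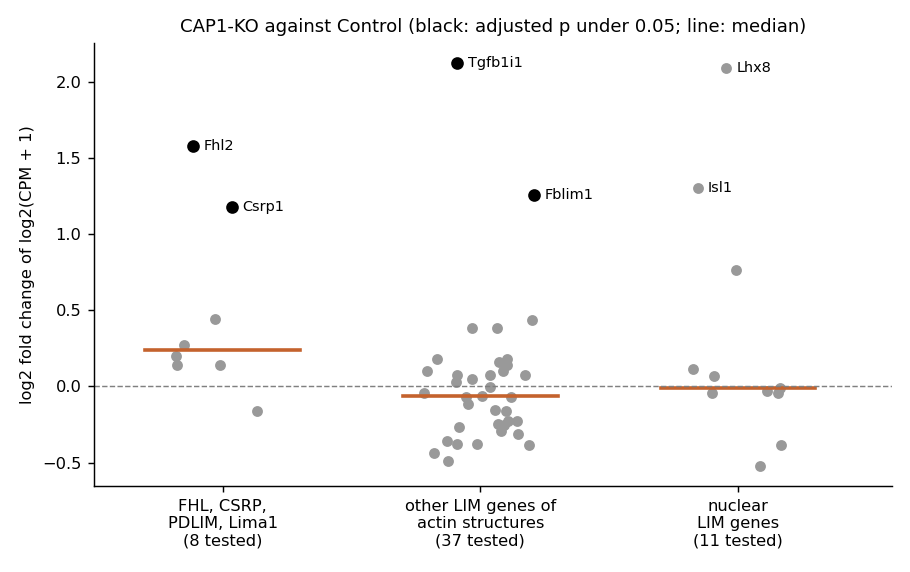
Log2 fold change of log2(CPM + 1), CAP1-KO against Control, of the 8 tested members, 37 other LIM genes of actin structures and 11 nuclear LIM genes; each point is a gene, black marks a limma adjusted p under 0.05 and the line is the median (0.24, -0.06 and -0.01). The called genes Fhl2, Csrp1, Tgfb1i1 and Fblim1 lie apart from the bulk of their lists, and the high point of Lhx8 is not called.

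For each called member, the 2 genes with the most similar pattern over the 6 libraries were taken. Likeness was the root mean square difference of log2(CPM + 1) after the Control mean of each gene was removed. It therefore mostly follows the size of the difference between groups, by which the members were called. The share of genes of actin structures among all genes of like difference was not computed. Nearest to Csrp1 were Flna, the actin crosslinker filamin A (difference 0.07; 695 ± 9.45 and 1581 ± 55.5 CPM in Control and CAP1-KO), and Fblim1 (0.12). Nearest to Fhl2 were Vcl, the adhesion protein vinculin (0.23; 29.1 ± 5.91 and 81.8 ± 2.14 CPM), and again Fblim1 (0.25). These are descriptions over 6 libraries, which differ by group and, among the Control libraries, in Xist and in the standing of FF4.

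Several of the members are known from smooth or skeletal muscle and vessel walls, so markers of these and other cells were summed in each library. Mural cell markers (pericytes and vascular smooth muscle, 11 of 11 tested, none called) summed to 171 to 184 CPM in Control and 163 to 188 CPM in CAP1-KO. That list left out the contractile smooth muscle genes Acta2, Tagln and Myh11, which were called higher (limma adjusted p = 0.000148, 0.000889 and 0.00127). Their means in Control and CAP1-KO were 0.80 and 49.6, 0.89 and 18.4, and 0.78 and 5.81 CPM. These genes were picked after their values were seen. Endothelial markers (9 of 10 tested, 2 lower, against 0.403% of tested genes) summed to 160.2 to 179 and 128 to 143 CPM. Skeletal muscle markers (5 of 10 tested, none called) summed to 7.74 to 11.3 CPM in Control and 14.4 to 23.8 CPM in CAP1-KO. All 5 tested muscle markers had a higher mean in CAP1-KO, 3 of them with no overlap between groups, as for 11.1% of all tested genes. The largest difference was that of the myosin gene Myh8 (log2 fold change 0.85, limma adjusted p = 0.132). Of the defining regulators, Myod1 had 4 reads in each group and Myog 7, while the muscle creatine kinase gene Ckm had 23 reads in Control and 115 in CAP1-KO. Meningeal fibroblast markers (8 of 10 tested, none called) summed to 13.7 to 15.9 CPM in Control and to 15.0, 90.6 and 78.6 CPM in FCRE3, FCRE4 and FCRE5. Choroid plexus markers (5 of 8 tested, 1 higher, Ttr, against 0.562% of tested genes) summed to 2.77 to 7.92 and 56.4 to 120 CPM. Microglia markers (8 of 8 tested, none called) summed to 31.9 to 42.6 and 48.1 to 62.3 CPM. Every CAP1-KO library also lay above every Control library for 5 of 8 microglia, 3 of 5 choroid plexus, 3 of 8 meningeal and 1 of 9 endothelial markers tested, against 11.1% of tested genes. The reverse held for 5 of 9 endothelial, 3 of 8 cortical neuron and 1 of 11 mural markers, against 14.6% of tested genes. The part of the cells that any of these marker lists stand for in the values of the members was not tested.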

How the data were processed

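The deposited values of the 6 libraries are normalized counts on a log2 scale, per the file headers. Beside them stand the log2 fold change, the F statistic (a score), the p-value and the FDR of the authors. STAR, edgeR, GRCm38 and mm10 are named in the submitters' processing notes; for the read counter, annotation, strand setting and filters, the entry is: not given in the sources used here. Library columns were assigned to groups by genotype (FF, flox without Cre; FCRE, flox with Cre).

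All libraries shared a lowest value of 0.0584 CPM on the linear scale. Without it, 100% of values lay within 0.01 of a whole number of reads. CPM follow the authors' scaling, and 1 CPM is 31.2 to 37.3 reads. Intervals on reads cover counting error only.

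The table held log2 values, not counts, so limma 3.58.1 in R 4.3.3 was fitted, with an intensity trend and no covariate, on log2(CPM + 1) of the 13885 genes whose mean reached 1 CPM, with Benjamini-Hochberg adjustment over all of them and a threshold of 0.05. This scale understates the change of low genes. Tested on simulated reads for CAP1-KO against Control (13885 genes), it recovered 63 of 100 genes changed 1.5-fold and 81 of 100 changed 2-fold, and called 8 unchanged genes. The simulated libraries were drawn independently, without the shift of FF4 or the imbalance of Xist, so these counts do not cover either.

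The 14 alternatives were median-ratio size factors, scaling to total reads, a pseudocount of 0.1, the deposited log2 values as they stand, no filter, each library left out, Xist as a covariate, the Control library with Xist alone, and limma-voom on the recovered reads, which called 85 genes higher and 53 lower. Family ratios were compared by exact permutation, also with 1 CPM added to each gene.

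Genes were identified by gene number through RefSeq (GRCm38.p6, 25275 of 27179 matched) because the symbols of 6075 genes, 3 of them at 1 CPM or more, belong to another number; the members were taken by symbol. Exon bases came from GENCODE M21. Every member is named; of the other lists, called genes or else the 2 of highest level are named, with 2 most similar genes per called member that changed by 0.5 (log2) or more. Some planned markers of cortical neurons are not reported here and were left out of their sum. Other genes were named after their values were seen. Members, lists and alternatives were chosen with earlier results of these data known. Figures used matplotlib 3.10.9 in Python 3.11.15. A difference from the plan is that 7 in place of 10 family pairs were compared.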

Additional observations from a re-analysis of the deposited data

How the results depend on the processing

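Fhl2, Csrp1 and Cap1 kept direction and call in all 14 alternatives, Cap1 with a log2 fold change of -1.18 to -1.04; Fhl3, Csrp2, Pdlim7 and Lima1 kept their sign and stayed uncalled in all 14. Their sizes moved: Fhl3 ran from -0.41 (against FF2 alone) to -0.04 (without FF2), with -0.07 without FCRE3 and -0.25 without FF4, Csrp2 fell to 0.04 with the Xist covariate and against FF2 alone, Pdlim7 fell to 0.09 without FCRE4, and Lima1 ran from 0.22 to 0.38. Leaving out each library in turn gave 2 to 4 members called higher, 33 to 1299 of all genes higher and 3 to 2623 lower, 2 to 6 other LIM genes of actin structures higher and 0 to 14 lower, and 0 to 3 nuclear LIM genes higher and 0 to 2 lower; the highest counts come without FF4 and the lowest of all genes without FCRE5. The count of all genes higher moved by over 1.5 times without FF1 (36), FF2 (49), FF4 or FCRE5, and that of lower genes whichever of the 6 was left out (FF1 6, FF2 11, FCRE3 7, FCRE4 175). Against FF2 alone there were 4 members higher, 626 of all genes higher and 1185 lower, 4 other LIM genes higher and 8 lower, and 3 nuclear LIM genes higher and 2 lower. The Xist covariate left 23 of all genes higher and 3 lower, no filter left 20 lower, and scaling to total reads gave 4 other LIM genes higher and moved the median of all tested genes to 0.06. In the fits with a single Control library that library is assumed to vary like the CAP1-KO group. The log2 ratio of Pdlim5 to Pdlim1 turned to -0.22 without FF1 and to -0.27 without FCRE4, and was at most 0.32, without FCRE3. That of Fhl1 to Fhl3 was 0.21 without FF2 and 0.71 without FF4, that of Pdlim5 to Pdlim7 0.21 without FF2 and 0.54 without FF4, and that of Pdlim1 to Pdlim7 0.05 without FCRE3, 0.15 without FF2, 0.46 without FF1 and 0.57 without FCRE4. The causes of these shifts were not tested. Depth limits Pdlim1, Pdlim3 and Fhl3. No paired analysis was possible because the numbers of the library columns (FF1, FF2, FF4 and FCRE3, FCRE4, FCRE5) share only 1 number and differ from the numbers in the labels.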

Other observations

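The mismatch of symbol and gene number seen for Pdlim3 was common among rarely read genes of the deposited table. The symbol belonged to another RefSeq gene number for 6075 genes, of which 3 had a mean of at least 1 CPM. For 5294 of them the Ensembl ID is in GENCODE, and it named the gene of the number for 5077 and the gene of the symbol for 3. Rows numbered as a miRNA but with a protein-coding symbol (123) had at least 1 read in 46.3% of cases, and rows numbered as protein-coding but with a miRNA symbol (118) in 76.3%. Folr1, a choroid plexus gene by its number, had 11 reads in Control and 113 in CAP1-KO, beside 15 and 8749 reads of Ttr.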
